A study of Drosophila melanogaster with 3 samples.

Results

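The cell death inducer genes of Drosophila melanogaster are hid, grim, rpr and skl, 4 of the 13945 protein-coding genes annotated on the 6 main chromosome arms. They lie in a row on arm 3L and were described here by the regions that chromatin immunoprecipitation followed by sequencing (ChIP-seq) recovered at them. A listed region was assigned to the cluster when its summit fell inside a member's gene body, in intergenic sequence between members, or nearest to a member's start site among all start sites of protein-coding genes. The rule for a region used its position and no measured value. By this rule the cluster held 4 of the 2740 peaks that passed the authors' threshold on the irreproducible discovery rate, called thresholded peaks here. It held 68 of the 30000 regions of the authors' combined list, from which that list was made, and 52, 82 and 61 of the 30000 regions listed for replicates 1, 2 and 3, a mean of 65.0 ± 15.4 (SD, n = 3).

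The samples were whole embryos aged 0 to 24 h, male and female pooled, of 1 transgenic line that stably expresses proboscipedia (pb) with GFP, a fluorescent tag, fused to the C-terminal end. pb belongs to the Hox genes of the Antennapedia complex and encodes a transcription factor with a homeodomain. Chromatin was sonicated to 200 to 800 bp and recovered with an antibody to GFP. There were 3 biological replicates of this single group and no second condition, so no test was made and no value below compares treatments. No library from embryos without the tagged protein was analysed here, and whether recovery at these genes needs pb-GFP was not tested. Binding in few cells and weak binding in many cannot be told apart in whole embryos. Read depth is unknown. Each list gives the authors' signal value per region, and no source used here states its statistic, so regions are compared by rank within a list, where 1 is the strongest. Each list of a library holds background regions beside peaks, so a place deep in it is not a called peak.

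The 4 genes encode proteins that start apoptosis in flies. Each carries a short motif at its N terminus with which it binds the inhibitor of apoptosis Diap1, and so frees the caspases Dronc and Drice. Their transcription is a main step, though not the only one, at which death is controlled in the fly. The long intergenic stretches of the cluster hold enhancers that respond to segment identity, steroid hormone, DNA damage and stem cell age. The Hox protein Dfd is known to activate rpr in head segments of the embryo, a stretch upstream of rpr responds to irradiation through p53, and sequence between grim and rpr is needed for the death of neuroblasts.

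All 4 genes are read from the minus strand of 3L (dm6, Ensembl 115 annotation). hid (head involution defective, FBgn0003997) is the longest, at 18167745 to 18185641, or 17897 bp. grim (FBgn0015946) lies at 18302719 to 18304417 and spans 1699 bp, rpr (reaper, FBgn0011706) lies at 18397535 to 18398435 and spans 901 bp, and skl (sickle, FBgn0036786) lies at 18438561 to 18439942 and spans 1382 bp. From the end of hid to the start of skl the cluster covers 272 kb. More sequence lay nearest to these start sites than to those of most genes. It came to 19.5 kb for hid, 48.6 kb for grim, 67.8 kb for rpr and 31.3 kb for skl, against a median of 4.32 kb over all genes, and a gene with more such sequence can be nearest to more summits.

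Of the 4 thresholded peaks, 3 are shown here by the 201 bases centred on each summit, because they are places in the cluster where the authors called binding. The sequences are from the RefSeq Release 6 genome, plus strand of 3L. Capitals mark TAAT on either strand, the core of many homeodomain sites, and adjoining capitals can hold overlapping matches. The first lies just upstream of hid, the next between hid and grim, and the last upstream of rpr.
Rank 338, chr3L:18185830-18186030: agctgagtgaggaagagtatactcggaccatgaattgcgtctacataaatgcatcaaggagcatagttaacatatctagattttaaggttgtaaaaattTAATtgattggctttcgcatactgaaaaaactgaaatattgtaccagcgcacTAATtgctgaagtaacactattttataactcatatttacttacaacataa
Rank 313, chr3L:18281321-18281521: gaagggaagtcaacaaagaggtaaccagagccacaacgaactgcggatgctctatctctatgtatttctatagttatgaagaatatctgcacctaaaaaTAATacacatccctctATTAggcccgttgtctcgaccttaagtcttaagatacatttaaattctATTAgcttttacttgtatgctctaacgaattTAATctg
Rank 2223, chr3L:18403332-18403532: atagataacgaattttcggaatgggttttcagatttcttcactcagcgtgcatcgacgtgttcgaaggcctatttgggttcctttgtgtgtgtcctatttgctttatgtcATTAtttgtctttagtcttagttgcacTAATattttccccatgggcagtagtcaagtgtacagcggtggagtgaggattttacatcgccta

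TAAT, counted on both strands with overlaps allowed, occurred 2 times in the window upstream of hid (rank 338), 4 times at rank 313 and 2 times at rank 2223. This is 1.33 matches per 100 bp over the 3 windows, against 1.28 over all 2740 thresholded windows, of which 83.6% held at least 1 match. The longer palindrome TAATTA occurred in none of the 3 windows and in 12.3% of all thresholded windows. TGATNNAT, a form bound by Hox proteins together with their partner exd, occurred once, upstream of hid, and in 10.9% of all thresholded windows. GATA occurred in each of the 3 windows and in 75.0% of all. GAGAG, bound by the GAGA factor, and CAGGTA, bound by the early activator zld, occurred in none of the 3, against 28.9% and 4.31% of all thresholded windows. CANNTG, the E-box, occurred only at rank 2223 among the 3, against 63.3% of all. These matches describe the letters and do not show that a factor was bound there.

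The strongest region of the cluster in the combined list and in replicates 1 and 2 lay far from every member's start site, between hid and grim. It is a peak of 120 bp at 18281362 to 18281481 with its summit at 18281421, 95780 bp upstream of hid and 22996 bp downstream of grim. The nearest protein-coding start site was that of CG5103, 12841 bp away, with the summit beyond the far end of that gene. Replicates 1, 2 and 3 ranked it 462, 215 and 400, a mean of 359.0 ± 128.5 (SD, n = 3), and the combined list ranked it 313. All 3 libraries placed it among their 500 strongest regions, and in replicate 3 the peak upstream of hid ranked above it.

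The hid peak was the only thresholded peak within 1000 bp of a member's start site. It spanned 18185725 to 18186134, and the summit, at 18185930, lay 289 bp upstream of where hid starts. The libraries ranked it 690, 359 and 290, a mean of 446.3 ± 213.8 (SD, n = 3, in the order of replicates 1, 2 and 3 here and below), and the combined list ranked it 338. In replicate 3 a second strong summit stood 495 bp upstream of hid at rank 1394. The matching combined region, at rank 6053, stood at rank 23054 in replicate 1 and had no summit within 100 bp in replicate 2. The shoulder further upstream of hid was therefore strong in 1 library of 3.

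The third peak by rank also lay between hid and grim in intergenic sequence, with CheA75a as the nearest protein-coding gene. Its ranks were 3432, 1819 and 2021, a mean of 2424 ± 878.8 (SD, n = 3), and its combined rank was 1785. Replicate 1 ranked it lowest, outside its 2740 strongest regions. Another region nearest to CheA75a, at rank 4819 in the combined list, stood at 1942 in replicate 2 but at 28540 in replicate 1 and 11419 in replicate 3.

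The rpr peak was the least repeatable of the 4. It spanned 18403227 to 18403636, and the summit, at 18403432, lay 4997 bp upstream of where rpr starts. The irradiation-responsive sequence is on the same side of rpr, and whether the peak overlaps it was not tested. It stood at rank 2028 in replicate 2 and 1491 in replicate 3 but at 17522 in replicate 1, a mean of 7014 ± 9104 (SD, n = 3), and at 2223 in the combined list. Replicates 2 and 3 thus placed it among their 2740 strongest regions and replicate 1 did not.

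**Figure D1:**
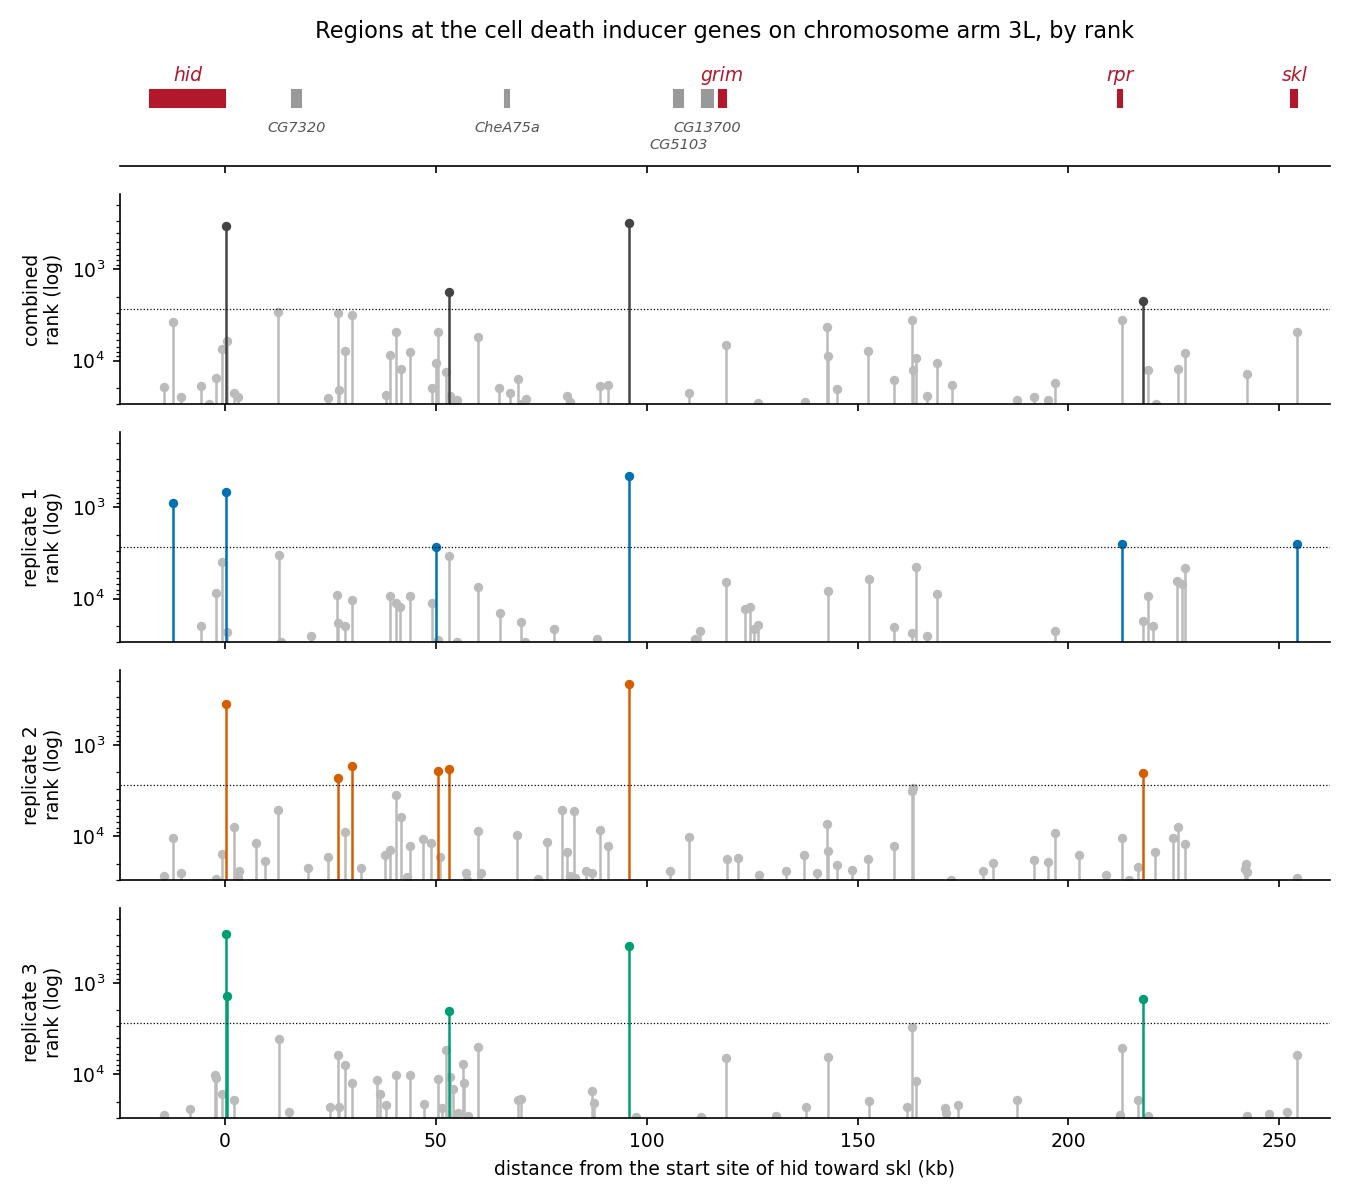
Regions of the cell death gene cluster by distance in kb from the start site of hid toward skl (x axis) and by rank on a reversed log axis (y axis, strongest at the top), for the combined list and each of the 3 libraries. Boxes mark protein-coding genes, members in red; coloured points are regions within the 2740 strongest of their list (dotted line) and grey points lie below it. The peaks just upstream of hid and 95780 bp upstream of it stand above the line in all 4 panels, and no region between grim and rpr does in any.

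Among the members, thresholded peaks were nearest to hid and rpr and to neither grim nor skl. hid and rpr, 2 of the 4 members, were nearest to a thresholded summit, against 14.7% of the 13945 genes. Among the 1580 genes with at least as much sequence nearest to their start sites as hid, the member with least, the share was 30.8%. A start site within 1000 bp of a thresholded summit was found for 1 member, hid, against 15.3% of genes. No member's gene body held a thresholded summit, against 9.02% of genes. With 4 members these counts are too small to set the cluster apart from genes at large.

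The libraries taken singly gave much the same members. Among the 2740 strongest regions of replicate 1, summits were nearest to 3 members (hid, rpr and skl), against 14.8% of genes. Replicate 2 gave 2 such members (hid and rpr), against 14.4% of genes, and replicate 3 gave the same 2, against 14.5% of genes. grim was nearest to no such region in any of the 3 libraries.

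Without a threshold every member had listed regions, as most genes did. All 4 were nearest to a region of the combined list, against 67.4% of genes, and all 4 had such a region within 1000 bp of the start site, against 62.7% of genes. Each library also had a region that close to all 4 members, against 61.6%, 61.0% and 62.6% of genes. The members differed in how strong that region was, and are taken in turn below.

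hid held the best rank of the 4 in every library. The share of all genes that had a better best rank was 4.49%, 2.37% and 1.92% in the libraries and 2.24% in the combined list. In such shares, here and below, genes were not matched for the length of sequence nearest to their start sites. hid was nearest to 5, 8 and 7 regions, a mean of 6.67 ± 1.53 (SD, n = 3). Its gene body held 7 combined regions, 5 of them in introns and 2 in coding exons, and none reached the threshold.

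One of the coding exon regions of hid belonged mainly to 1 library. It lay at 18173019 to 18173428, 12417 bp downstream of the start site, and stood at rank 908 in replicate 1 and 10326 in replicate 2, with no summit within 100 bp in replicate 3. Its combined rank was 3764. Replicate 1 also had more coding exon summits than the others genome-wide: 4.53% of its 2740 strongest summits lay in coding exons outside promoters, against 0.438% in replicate 2 and 0.547% in replicate 3. The part of that shift in the rank of the hid exon was not tested.

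rpr came second in the combined list and in each library. Its best nearest regions stood at ranks 2525, 2028 and 1491, a mean of 2015 ± 517.1 (SD, n = 3). These were not the same place: in replicate 1 the best region lay 13 bp downstream of the start site, and in replicates 2 and 3 it was the thresholded peak upstream. The start site itself had a region in all 3 libraries, with its combined summit 2 bp upstream of the start and its combined rank 3552, below the threshold. The libraries gave it ranks 2525, 10374 and 5119, a mean of 6006 ± 3999 (SD, n = 3). The order of the upstream peak and the start site was thus reversed between replicate 1 and the other libraries. Among all genes, 12.3% had a better combined rank than rpr.

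grim had no region among the 2740 strongest of any list. Its start site region, with a combined summit 132 bp upstream, stood at ranks 6550, 17790 and 6645, a mean of 10328 ± 6462 (SD, n = 3), and at combined rank 6657. The strongest combined region nearest to grim lay 44213 bp upstream, in the long stretch toward rpr, at combined rank 3620. The libraries placed it at 24058, 3191 and 3030. The best region nearest to grim in each library, not always the same one, stood at ranks 4477, 2951 and 3030, a mean of 3486 ± 859.1 (SD, n = 3). In replicate 1 that region also lay between grim and rpr. Among all genes, 18.2% had a better combined rank than grim.

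skl varied most between libraries. Its best nearest regions stood at ranks 2563, 19875 and 6236, a mean of 9558 ± 9122 (SD, n = 3), the largest SD of the best ranks of the 4 members. Its start site region, with a combined summit 12 bp upstream, stood at rank 2563 in replicate 1 and 6236 in replicate 3. In replicate 2 no summit lay within 100 bp of it, and the region of that library within 1000 bp of the start site was at rank 28562. Its combined rank was 4827, and 22.5% of genes had a better one. skl was nearest to only 1, 4 and 4 regions, a mean of 3.0 ± 1.73 (SD, n = 3), the fewest of the 4 members. grim was nearest to 10, 14 and 8 regions and rpr to 10, 16 and 9, so their ranges overlap.

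**Figure D2:**
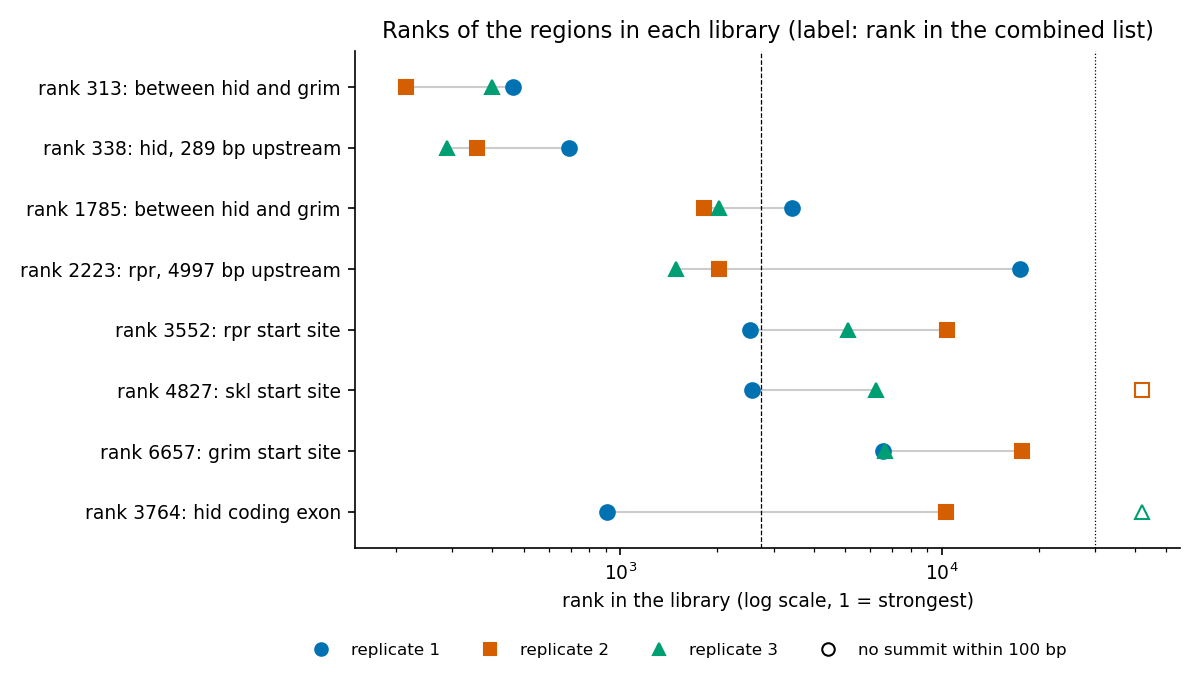
Rank of 8 regions of the cluster in each library (x axis, log scale, 1 is strongest), with the combined rank in the row label; filled symbols are the 3 libraries and open symbols mark a library with no summit within 100 bp. The dashed line is at rank 2740 and the dotted line at rank 30000. The symbols of the 2 strongest regions lie between 215 and 690, while those of the rpr peak lie between 1491 and 17522.

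**Figure D3:**
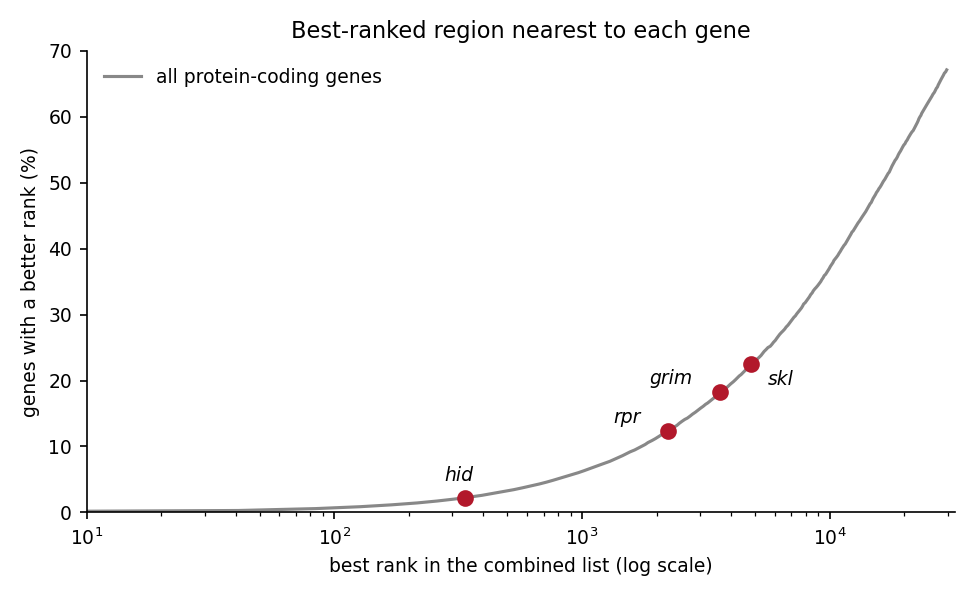
Percent of all 13945 protein-coding genes with a better rank (y axis) for each best rank of the region nearest to a gene in the combined list (x axis, log scale); red points are the 4 members. hid stands at 2.24%, and rpr, grim and skl stand at 12.3%, 18.2% and 22.5%. Genes are not matched for the length of sequence nearest to their start sites.

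The start sites of rpr, skl and grim, which had regions below the threshold, are shown with that of hid by the 100 bases upstream of each annotated start. The sequences are from the RefSeq Release 6 genome and are written 5′ to 3′ along the minus strand, as the genes are read. Capitals mark TATAAA, the TATA box, on either strand.
hid, chr3L:18185642-18185741: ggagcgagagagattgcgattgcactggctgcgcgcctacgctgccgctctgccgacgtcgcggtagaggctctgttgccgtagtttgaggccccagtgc
grim, chr3L:18304418-18304517: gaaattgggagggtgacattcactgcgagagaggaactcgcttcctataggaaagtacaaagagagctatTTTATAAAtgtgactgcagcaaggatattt
rpr, chr3L:18398436-18398535: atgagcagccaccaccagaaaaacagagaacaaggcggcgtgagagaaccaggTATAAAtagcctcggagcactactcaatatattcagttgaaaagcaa
skl, chr3L:18439943-18440042: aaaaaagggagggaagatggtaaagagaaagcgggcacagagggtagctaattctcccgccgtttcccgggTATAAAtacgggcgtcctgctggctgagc

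TATAAA began 28 bp upstream of the start site of grim, 47 bp upstream of rpr and 29 bp upstream of skl on the strand of the gene. grim held an overlapping match on the other strand, and hid held none. Of 19253 start sites of protein-coding genes, 18.1% had TATAAA on either strand in the same 100 bases. Around the summits of the 3 start site regions GAGAG occurred 3 times for grim, 2 times for rpr and 2 times for skl, against none in the 3 thresholded windows, and 26.6% of all combined windows held it. Within 200 bp of the summit the counts were 6, 3 and 10 for grim, rpr and skl, against 4 at rank 338, 1 at rank 313 and 0 at rank 2223, so the absence in the thresholded windows holds for the narrower window. TAAT occurred once for skl and not for grim or rpr, against 67.8% of all combined windows. The GC content of these windows was 50.7% for grim, 43.8% for rpr and 49.3% for skl. The thresholded windows held less, with 32.3% at rank 338, 36.3% at rank 313 and 41.3% at rank 2223, against a median of 39.3% over all thresholded windows and 48.3% over all combined windows.

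Regions were listed more densely between hid and grim than between grim and rpr. The protein-coding genes CG7320, CheA75a, CG5103 and CG13700 lie between hid and grim, and no other protein-coding gene starts between grim and rpr. The part of these genes in the difference was not tested. The stretch between hid and grim, 117 kb long, held 28, 45 and 35 regions, or 3.07 ± 0.729 per 10 kb (SD, n = 3). Densities here and below count every summit in a stretch. In this one, 1, 2 and 0 of them lay inside other protein-coding genes, which the assignment rule leaves out. The 93.1 kb between grim and rpr, which hold the sequence needed for neuroblast death, had 13, 22 and 12 regions, or 1.68 ± 0.589 per 10 kb. The density between hid and grim was the higher of the 2 in each of the 3 libraries, and the highest value between grim and rpr, 2.36 per 10 kb in replicate 2, was just under the lowest between hid and grim, 2.39 in replicate 1. Of the 68 combined regions 61 were intergenic, 5 were in introns and 2 in coding exons, a split that the assignment rule largely sets, because it takes in intergenic sequence between the members.

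The mean density of the whole cluster differed from that of the arm by less than the SD between libraries. Between rpr and skl, over 40.1 kb, there were 6, 10 and 7 regions, or 1.91 ± 0.516 per 10 kb (SD, n = 3). The gene body of hid held 4, 5 and 5, or 2.61 ± 0.318 per 10 kb. No region fell in the gene body of grim, 1699 bp long, in any of the 5 lists. The gene bodies of rpr and skl, shorter still, held 0 in the combined and thresholded lists and 0 or 1 in each library. Over the whole cluster the density was 1.95, 3.09 and 2.2 per 10 kb, a mean of 2.41 ± 0.599 (SD, n = 3), against 2.35, 2.37 and 2.34 over the whole of 3L. The cluster values, on 53, 84 and 60 summits between its ends, spread to either side of the arm. Each library list holds 30000 regions, so closeness between libraries over the arm, on 6554, 6630 and 6541 regions, was largely set in advance. The spread at the cluster therefore cannot be read against it. Of the 101 other windows of the same length on 3L, the number that held fewer regions than the cluster was 30, 66 and 42.

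**Figure D4:**
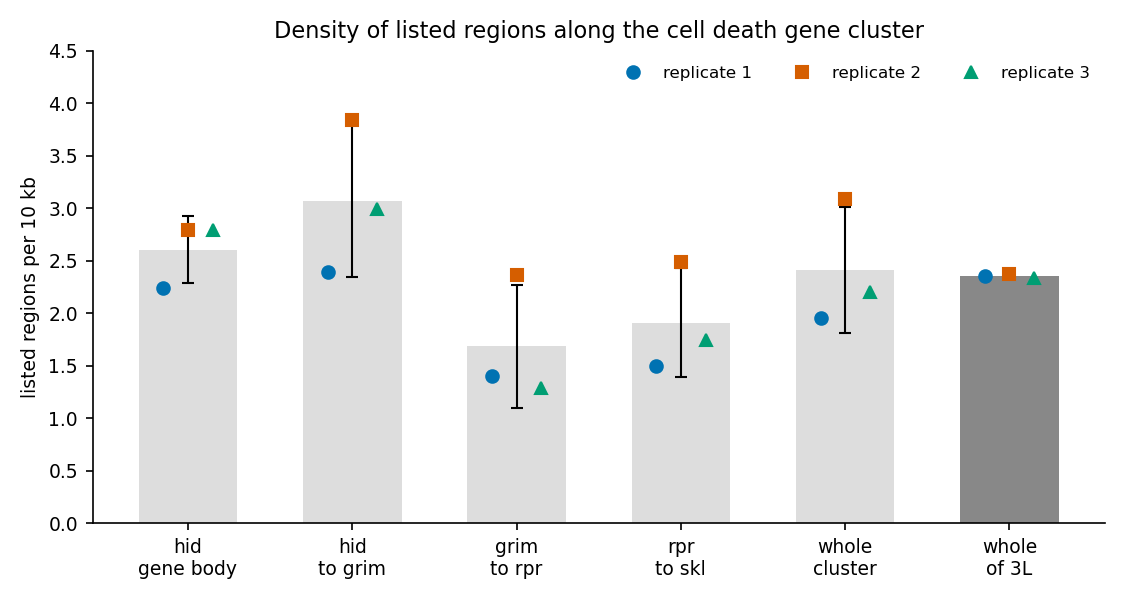
Listed regions per 10 kb (y axis) in segments of the cluster, in the whole cluster and in the whole of 3L (x axis); bars are means over the 3 libraries, error bars the SD, and symbols the libraries. The bar between hid and grim stands at 3.07 and that between grim and rpr at 1.68, on either side of the whole arm.

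Of the 4 thresholded peaks, 3 lay between hid and grim (0.256 per 10 kb), 1 lay between rpr and skl (0.249 per 10 kb) and none lay between grim and rpr. The whole cluster had 0.147 per 10 kb, against 0.192 over 3L. Of the 101 other windows of the same length, 40 held fewer thresholded peaks than the cluster, 7 as many and 54 more, with a median of 5 and a range of 0 to 25. The 4 peaks of the cluster were thus 1 fewer than the median window held.

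The weakest member peak inside the authors' threshold was the rpr peak at combined rank 2223. The next regions outside, at ranks 2922, 3041 and 3148, all lay between hid and grim and were nearest to CG7320. The summit at rank 2922 was 3188 bp upstream of that gene. After them came the rpr start site at rank 3552. The region at rank 2922 stood at ranks 3354, 5210 and 4082 in the libraries, a mean of 4215 ± 935.2 (SD, n = 3). Its SD was smaller than the 9104 of the rpr peak inside the threshold. The deposited −log10 q was 3.29 for the region at rank 2922 and 2.42 for the rpr start site. For all 4 thresholded peaks of the cluster it was 3.76, the largest value of the combined list. All 2740 thresholded peaks and 2876 of the 30000 combined regions stood at that value.

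By rank class, regions of the cluster were found in all 3 libraries at a share near or above that of all regions, on few regions. A combined summit was counted as found when a library had a summit within 100 bp, which its making from the same libraries favours. All 4 thresholded member peaks were found in all 3 libraries, against 88.4% of all thresholded peaks. From there down to combined rank 5000 it was 6 of 10 member regions (60.0%), against 58.8% of all regions, and from there to rank 10000 it was 5 of 11 (45.5%), against 29.4%. Below that, 1 of 18 member regions (5.56%) down to rank 20000 and 0 of 25 down to rank 30000 were found in all 3, against 5.06% and 0.28% of all regions. Over the whole list 16 of 68 (23.5%) were found in all 3 libraries, against 19.2%. Replicate 2 listed the most member regions, and shared 22 with replicate 1, which is 26.8% of its own 82 and 42.3% of the 52 of replicate 1, against 32.4% of all regions of either library. It shared 21 with replicate 3, which is 25.6% of its own and 34.4% of the 61 of replicate 3, against 34.8% of all. Replicates 1 and 3 shared 21, which is 40.4% of the 52 and 34.4% of the 61, against 29.4% of all.

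By nearest start site, 31 of the 68 combined regions of the cluster lay between members but nearer to another gene. CG5103 was nearest to the strongest peak and CheA75a to the one at rank 1785, while CG7320, the first gene upstream of hid, had a best combined rank of 2922. CG13700, next to grim, was nearest to no combined region. CG13699, on the far side of hid, was nearest to the coding exon region in hid at rank 3764. Beyond skl, CG32196 had a best combined rank of 24815. Which gene such distant regions act on was not tested.

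The genes whose best ranks were most like those of hid over the 3 libraries were ebi, Lsd-2, Sf3b3 and shn. Likeness was the Euclidean distance between the log10 best ranks, which was 0.0679 for ebi, 0.073 for Lsd-2, 0.0907 for Sf3b3 and 0.104 for shn. hid stood at ranks 690, 359 and 290, against 800, 346 and 280 for ebi.

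Among 14 other genes of the apoptosis pathway, 3 (21.4%) were nearest to a thresholded peak, against 14.7% of all genes. Without p53, which also stands among the regulators below, it was 2 of 13 (15.4%), near the share of all genes, a count made after the values were seen. Diap1, the inhibitor that the members bind, had 2, the better at 3L 16046119 to 16046221, 697 bp downstream of its start site. That peak stood at ranks 1198, 338 and 430. p53, the damage-responsive transcription factor, had a peak 50 bp upstream of its start site at ranks 485, 630 and 747. Debcl, a Bcl-2 family member, had one 639 bp downstream at ranks 1115, 4021 and 3919. Replicate 1 ranked the Diap1 peak lowest of the 3 libraries but the Debcl peak highest. The caspase genes Dronc, Drice, Dcp-1, Dredd, Strica, Decay and Damm and the genes Diap2, Bruce, Dark and Buffy had none.

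Among 12 regulators known to act on transcription of the inducers, p53 again among them, 7 (58.3%) were nearest to a thresholded peak, against the same 14.7%. This list is of genes with long surroundings, a median of 34.8 kb nearest to their start sites, against 3.82 kb for the 14 genes above. Of the 12, 8 had at least as much as hid, a class in which 30.8% of genes had a peak. The best ranked was EcR, the ecdysone receptor, with a peak 5862 bp downstream of its start site at ranks 413, 585 and 499. After it and p53 came foxo, the stress-responsive forkhead factor, whose better peak lay 4521 bp upstream at ranks 915, 1092 and 684. The better peak of the Hox gene Abd-B lay 4521 bp upstream at ranks 977, 5479 and 785. Eip93F had one 11866 bp upstream at ranks 1985, 1644 and 1835, and Stat92E had one 339 bp downstream at ranks 3383, 1610 and 913. Dfd, the Hox gene known to activate rpr, was the seventh, named beside the rule after its values were seen. Its better peak lay 24497 bp downstream of its start site at ranks 2339, 3727 and 1696. br, Eip74EF, yki, srp and lok had no thresholded peak.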

How the data were processed

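Peak lists from 3 ChIP-seq libraries were used on dm6: 1 list per replicate, a combined list and a thresholded list. A replicate list was made from the alignments of that replicate and 1 control, the combined list from all 3 replicates' alignments, and the thresholded list by a cut on the irreproducible discovery rate, per the deposited notes. The authors deposited a signal value per region, which served only for ranks because no source used here states its statistic or normalization, and a −log10 q with a ceiling. The aligner, caller and their versions were not given in the sources used here. The lists on dm3 were not used here. The labels' antibody field names pb, while their description names GFP.

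Summits were assigned with the Ensembl 115 annotation (FlyBase release 6.54), in which th is named Diap1, using Python 3.11.15, numpy 2.4.6 and pandas 2.3.3. Summits within 100 bp counted as the same. Territory is the sequence nearer to a gene's start sites than to any other, and positions are 1-based. Assignment and matching were checked on simulated data. Motifs were counted within 100 bp of a summit. The sequence of 1 of the 4 thresholded peaks is not reported here. Alternatives were other thresholds, list depths, assignments, matching distances, windows, and leaving out each replicate. Named genes were the members, the genes between or next to them, the 4 genes most like the best-ranked member, and up to 6 genes with a thresholded peak from an apoptosis list and a regulator list. Members and lists were chosen with earlier results of these data known.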

Additional observations from a re-analysis of the deposited data

How the results depend on the processing

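Of 45 values under alternative settings, 28 stayed within 1.5 times the reported count or within the spread between libraries, and 17 moved. Some of the 28 could not have moved, so their number is no measure of stability. The mean rank with 1 replicate left out always lies within the SD of the same 3 ranks. A limit of 5000 bp to start sites hardly touches the counts of regions, because regions between members count at any distance. Keeping the 1370 strongest thresholded peaks left 2 of the 4 member peaks, 1 of the 2 members with a peak, and 0.0735 peaks per 10 kb. The share of all genes was not counted at this cut or with a replicate left out. Fewer peaks can be nearest to fewer genes, so these drops cannot be read as a result about the members. Counting gene bodies only left 0 members with a peak, against 9.02% of genes. Keeping thresholded peaks found among the top 2740 of both other libraries, with each replicate left out in turn, gave 2 to 4 peaks and 1 to 2 members. The 2 peaks lost were those at ranks 1785 and 2223, which stood at 3432 and 17522 in replicate 1; leaving out replicate 1 kept 4 peaks, and leaving out replicate 2 or 3 kept 2. The combined list itself was made from all 3 libraries each time. Shorter lists held fewer regions by construction: 14, 25 and 43 combined member regions among the strongest 5000, 10000 and 20000, and means of 6.0, 9.33, 20.3 and 41.0 per library among the strongest 2740, 5000, 10000 and 20000. Member regions found in all 3 libraries numbered 6 with summits within 50 bp and 25 with any overlap of intervals. The mean rank of the strongest region ran between 307.5 and 431.0 when each replicate was left out. The rpr peak, at 4997 bp, only just met the alternative limit of 5000 bp. Read depth is unknown, so differences in rank between libraries could not be set against counting error.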
